A study of Mus musculus with 6 samples.

Results

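Prokineticins and chemokines are small secreted proteins that steer migrating young neurons in the embryonic forebrain. Prok2 acts on the receptors Prokr1 and Prokr2, and mice without Prok2 or Prokr2 have small olfactory bulbs into which fewer interneurons arrive. The chemokine Cxcl12 acts on Cxcr4, through which cortical interneurons hold to their migratory streams. Ackr3 binds Cxcl12 as well, takes it up and removes it, and so keeps Cxcr4 responsive. Cxcl14 is a related chemokine made by some neurons and in epithelia.

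The genes described are these 7, Prokr1, Prokr2, Prok2, Cxcr4, Ackr3, Cxcl12 and Cxcl14, taken by symbol from 21286 genes of the deposited table. All 7 were found, and all 7 passed the filter on low counts that 15326 genes passed. RNA came from the lateral ganglionic eminence (LGE), a ventral forebrain region that supplies the striatum and the olfactory bulb with neurons, at embryonic day 16.5. One group held 3 libraries from Dlx1/2 -/- mutants, which lack the homeobox transcription factors Dlx1 and Dlx2, and the other 3 libraries from wild type littermates. Both groups were on a mixed C57BL/6J, 129S6 and CD1 background. Nothing in the labels ties a library to its own embryo, and p-values here reflect only how far the libraries spread, which may be technical.

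Library totals ran from 15670067 to 16196974 counts in mutant libraries and from 10711630 to 16588359 in wild type libraries. Levels are given as CPM, the usual depth-adjusted scale of read counts, after TMM scaling for library composition. Both targeted genes were low in every library labelled mutant. Dlx2 was at 15.5 to 18.7 CPM in mutant LGE, against 418.8 to 470.7 CPM in wild type LGE, and Dlx1 at 109.3 to 137.6 CPM in mutant LGE, against 831.4 to 898.4 CPM in wild type LGE. To describe the tissue, 16 markers of LGE identity were summed. Their sum was 2361 to 2636 CPM in mutant libraries and 4976 to 5316 CPM in wild type libraries. By the test used below, 12 of them were lower, 2 were higher and 2 were not called. Among all tested genes 12.8% were lower and 11.2% higher. In bulk tissue, fewer cells of a type, less RNA per cell and a difference in dissection cannot be told apart. The sum therefore does not check that both groups were dissected alike.

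Positions are on GRCm38. Prokr2 is on chromosome 2 (132337733 to 132385447, minus strand). Prokr1 (87578591 to 87590743, minus strand), Prok2 (99711299 to 99726392, minus strand) and Cxcl12 (117168535 to 117181367, plus strand) are on chromosome 6. Cxcr4 (128588199 to 128592293, minus strand) and Ackr3 (90203980 to 90216751, plus strand) are on chromosome 1, and Cxcl14 (56288643 to 56296551, minus strand) is on chromosome 13. All are protein-coding. Prok2 alone among them overlaps another annotated gene, the antisense transcript Gm26748, which had 15 reads over all 6 libraries together. No label or header states whether counting used strand.

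The receptors Prokr1 and Prokr2 are close relatives, which bears on whether their reads can be told apart. Their coding sequences (GENCODE M21) were identical at 923 of 1146 aligned bases, or 80.5%. The longest exact run that they share is 34 bases. It is shown in capitals, with 15 bases of coding sequence on either side. A read lying wholly within it, of 34 bases at most, could come from either gene.
Prokr1, coding bases 926 to 989: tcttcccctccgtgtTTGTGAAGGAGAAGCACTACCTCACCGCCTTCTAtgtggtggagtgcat
Prokr2, coding bases 890 to 953: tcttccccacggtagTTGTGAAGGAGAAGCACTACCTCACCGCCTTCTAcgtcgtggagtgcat
No stretch of 40 bases is common to the annotated transcripts of both genes. The other related pairs are more distant, with 56.0% identity and a longest shared run of 11 bases between Cxcr4 and Ackr3, and 62.6% and 9 bases between Cxcl12 and Cxcl14.

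The promoters of the genes with the strongest fall and the strongest rise are shown for comparison. They run from 250 bases before to 50 bases after the RefSeq start on GRCm38.p6, read along the gene's strand, with matches to TATAAA on either strand in capitals.
Cxcr4, chr1:128592250-128592549, minus strand: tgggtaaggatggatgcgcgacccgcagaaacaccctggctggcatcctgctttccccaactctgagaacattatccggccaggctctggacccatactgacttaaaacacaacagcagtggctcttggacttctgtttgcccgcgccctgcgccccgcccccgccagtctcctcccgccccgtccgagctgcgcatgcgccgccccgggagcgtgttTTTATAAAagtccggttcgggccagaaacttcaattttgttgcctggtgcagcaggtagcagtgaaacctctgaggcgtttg
Prok2, chr6:99726343-99726642, minus strand: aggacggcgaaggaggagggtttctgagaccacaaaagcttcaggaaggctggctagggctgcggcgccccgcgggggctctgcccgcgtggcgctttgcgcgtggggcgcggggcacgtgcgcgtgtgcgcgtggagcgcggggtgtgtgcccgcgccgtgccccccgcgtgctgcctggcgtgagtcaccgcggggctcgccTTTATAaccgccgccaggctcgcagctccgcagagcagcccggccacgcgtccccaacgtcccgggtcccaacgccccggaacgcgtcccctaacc
In the Cxcr4 promoter TTTATA and TATAAA overlap and begin 32 and 30 bases before the start, and in the Prok2 promoter TTTATA begins 46 bases before it. TATAAA in either orientation stands in 3 of the 7 promoters (Cxcr4, Prok2 and Ackr3) and in 13.6% of 32851 promoters of the same length. In the Ackr3 promoter it begins only 8 bases before the start, so the matches do not share a position. The Prok2 promoter is 73.7% G and C with 42 CpG, against 59.3% and 20 in the Cxcr4 promoter and medians of 52.7% and 7 over all promoters. The cores TAATTA and TAATTG, to which Dlx proteins and many other homeodomain proteins bind, were searched on both strands. One or the other stands in 12.4% of all promoters and in 0 of these 7. With so few promoters 0 is near that share, and sequence beyond them was not searched. Whether Dlx proteins act on these genes was not tested.

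The prokineticin genes split, with the ligand gene Prok2 and the receptor gene Prokr1 higher in the mutant and Prokr2 not called. Among the chemokine genes, Cxcr4 and Cxcl14 fell to about a common extent, Ackr3 fell by less, and Cxcl12 was not called. In all, 5 of the 7 genes passed the test, 2 higher and 3 lower, where 24.0% of all tested genes passed (11.2% higher and 12.8% lower). The test was the quasi-likelihood F test of edgeR, called at p below 0.05 after Benjamini-Hochberg adjustment over 15326 genes. At 2-fold or more besides, 4 of the 7 passed (Prok2, Prokr1, Cxcr4 and Cxcl14), where 6.88% of all tested genes did. In 6 of the 7 the mutant and wild type libraries did not overlap, where this held for 41.9% of all tested genes. An exact two-sided permutation test over 3 against 3 libraries gave p = 0.1 for these 6, the smallest value it allows, and p = 0.2 for Prokr2. The 7 genes, like the lists below, were chosen with earlier results of these data known. The shares above therefore cannot show that the 7 genes changed more often than others.

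**Figure D1:**
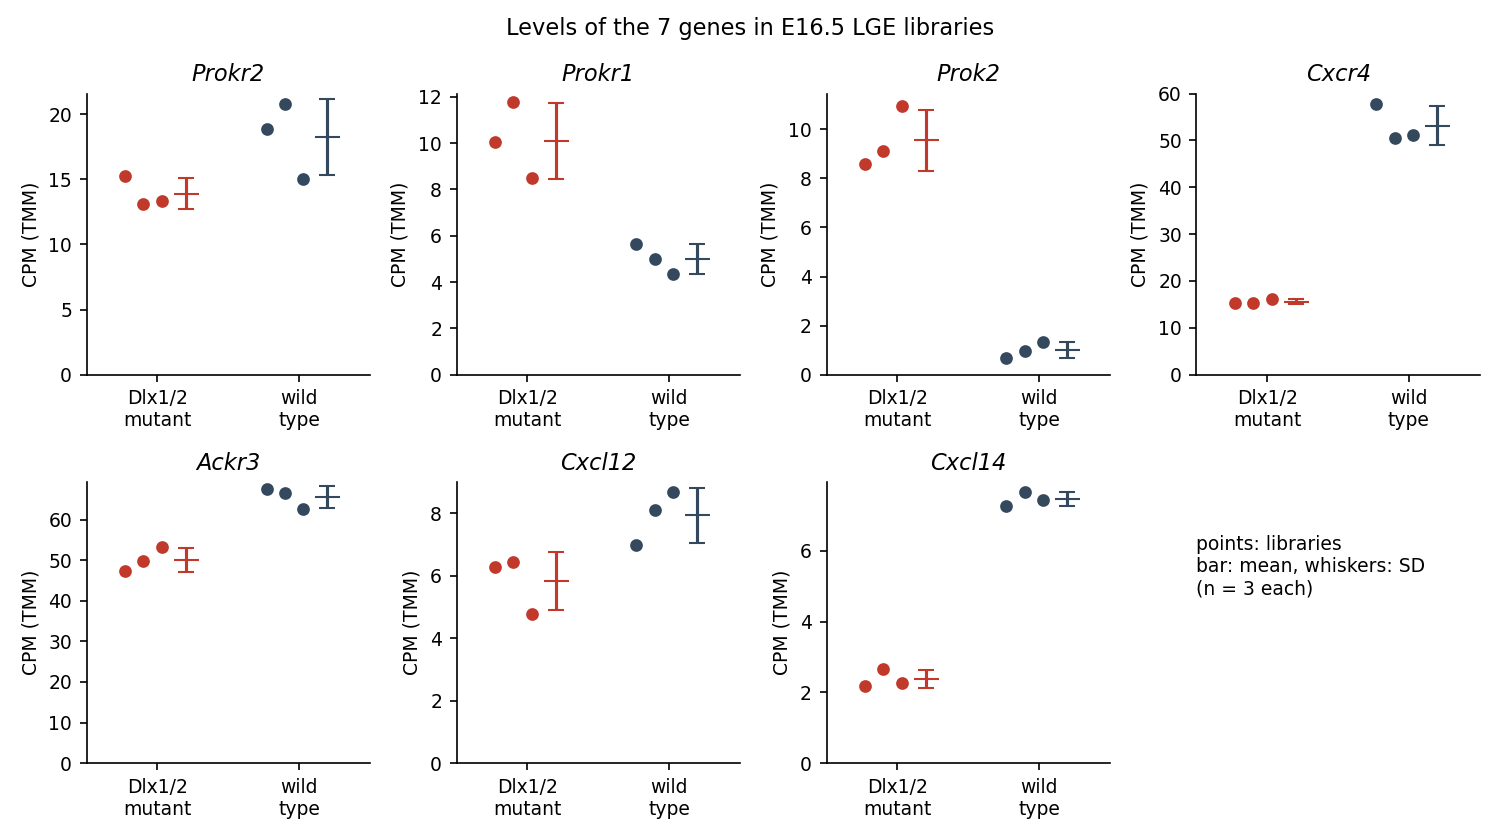
Level of each of the 7 genes in CPM (TMM scaled), one panel per gene with its own axis starting at 0. Points are the 3 Dlx1/2 mutant libraries (left, red) and the 3 wild type libraries (right, dark), and bars with whiskers give mean and SD; Prok2 and Prokr1 lie higher in the mutant, Cxcr4, Ackr3, Cxcl12 and Cxcl14 lower, and Prokr2 overlaps.

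Prok2, the ligand that draws bulb neuroblasts and also carries signals of the circadian clock, changed more than any other of the 7 genes. The mutant libraries held 141, 144 and 174 reads of Prok2, or 8.59, 9.11 and 10.9 CPM, and the wild type libraries 7, 15 and 22 reads, or 0.670, 0.975 and 1.33 CPM. Every mutant library lay far above every wild type library, and the wild type level was low but above the floor of 3 counts, which is 0.181 to 0.287 CPM per library. Prok2 averaged 9.55 ± 1.23 CPM in mutant LGE and 0.991 ± 0.329 CPM in wild type LGE (SD, n = 3 each), that is 3.21 ± 0.286 (SE) on the log2 scale or 9.24-fold, adjusted p = 4.12e-05. By size of change it was at place 112 of the 15326 genes, and by p-value at place 276. With 44 wild type reads in all, its wild type level is the least precise of the 7. Prok1, the other prokineticin, which acts on both receptors too, was looked at after its values were seen. It had 24, 25 and 24 reads in mutant libraries and 8, 15 and 17 in wild type libraries, 1.52 and 0.922 CPM on average, with adjusted p = 0.0669.

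Prokr1, the receptor better known outside the brain, rose. It was at 10.1, 11.8 and 8.49 CPM in mutant libraries and at 5.64, 5.003 and 4.35 CPM in wild type libraries. The lowest mutant library was above the highest wild type library. Prokr1 averaged 10.1 ± 1.64 CPM in mutant LGE and 4.997 ± 0.649 CPM in wild type LGE, a log2 fold change of 1.03 ± 0.174 or 2.04-fold (adjusted p = 0.00323).

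Prokr2, the receptor on neuroblasts bound for the olfactory bulb, was at 15.2, 13.1 and 13.3 CPM in mutant libraries and at 18.8, 20.8 and 15.03 CPM in wild type libraries. Mutant replicate 1 was above wild type replicate 3, so the groups overlapped. The means were 13.9 ± 1.17 CPM in mutant LGE and 18.2 ± 2.93 CPM in wild type LGE, and the log2 fold change was −0.39 ± 0.155, adjusted p = 0.0751. Without wild type replicate 3, the lowest of its group, the log2 fold change was −0.52 and the adjusted p = 0.0202; over all alternatives the adjusted p ran from 0.0202 to 0.213. Within a library, the deposited FPKM of Prokr2 was divided by that of Prokr1. The ratio was 1.07, 0.789 and 1.11 in mutant libraries and 2.37, 2.95 and 2.45 in wild type libraries. Its size depends on the gene lengths behind the FPKM, treated below, while its change between genotypes does not. The log2 ratio differed by −1.39 ± 0.186 (SE) between mutant and wild type, an exact permutation p of 0.1 and 0.1 after adjustment over the 4 ratios tested.

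**Figure D2:**
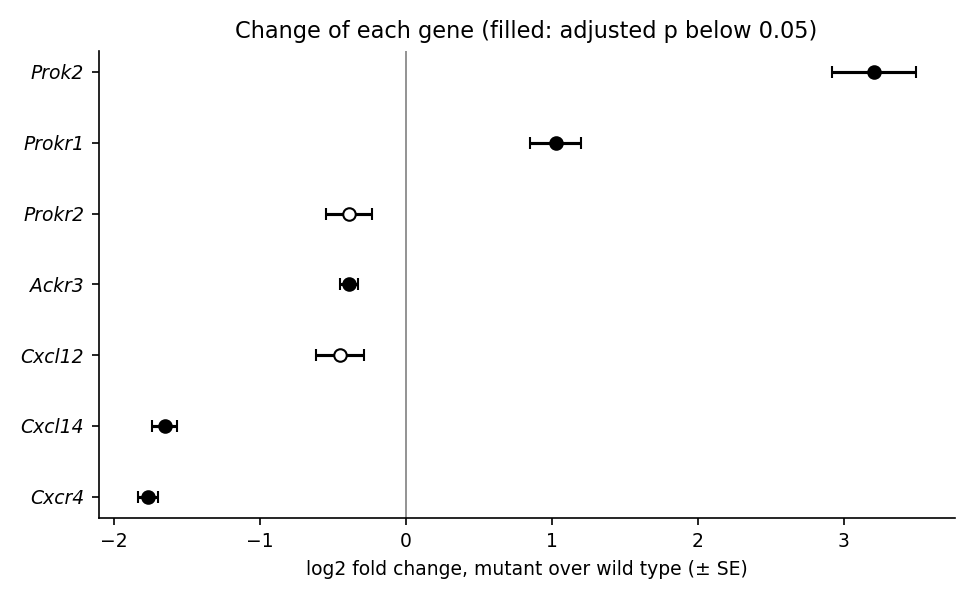
Log2 fold change of each gene, Dlx1/2 mutant over wild type, with its SE from the spread between libraries (n = 3 each); filled points passed at adjusted p below 0.05. Prok2 (3.21) and Prokr1 (1.03) lie right of 0, Cxcr4 (−1.77) and Cxcl14 (−1.65) farthest left.

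Cxcr4, the signalling receptor for Cxcl12, fell most among the 7. It had 15.3, 15.2 and 16.2 CPM in mutant libraries, from 241 to 258 reads each, and 57.9, 50.5 and 51.1 CPM in wild type libraries, from 605 to 846 reads each. Both groups were tight and stood far apart. Cxcr4 averaged 15.6 ± 0.551 CPM in mutant LGE and 53.1 ± 4.11 CPM in wild type LGE, a log2 fold change of −1.77 ± 0.0696, or 3.403-fold lower in the mutant (adjusted p = 4.77e-06). By p-value it was at place 89 of 15326 genes, and by size of change at place 427.

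Ackr3, the receptor that removes Cxcl12, fell much less. It was at 47.2, 49.7 and 53.2 CPM in mutant libraries and at 67.6, 66.5 and 62.6 CPM in wild type libraries, with no overlap. Its means were 50.1 ± 2.999 CPM in mutant LGE and 65.6 ± 2.64 CPM in wild type LGE, a log2 fold change of −0.39 ± 0.0602 (adjusted p = 0.00505). This is the same log2 fold change to 2 decimals as that of Prokr2, which was not called; the spread between libraries was smaller for Ackr3. The ratio of Cxcr4 to Ackr3 within a library, in deposited FPKM, was 0.415, 0.393 and 0.391 in mutant libraries and 1.097, 0.973 and 1.05 in wild type libraries. On the log2 scale the ratio differed by −1.38 ± 0.0572 between mutant and wild type (exact permutation p = 0.1, adjusted 0.1).

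Cxcl12, the ligand of both receptors, had few reads for its length. It was at 6.28, 6.45 and 4.78 CPM in mutant libraries and at 6.98, 8.12 and 8.69 CPM in wild type libraries. All mutant libraries were below all wild type libraries, by a narrow margin between 6.45 and 6.98 CPM. The means were 5.84 ± 0.920 CPM in mutant LGE and 7.93 ± 0.869 CPM in wild type LGE, and the log2 fold change was −0.45 ± 0.165, adjusted p = 0.0794. The log2 ratio of Cxcl12 to Cxcr4 was higher by 1.32 ± 0.227 in the mutant (exact permutation p = 0.1, adjusted 0.1).

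Cxcl14 fell by a size close to that of Cxcr4, at a much lower level. It had 36, 42 and 36 reads in mutant libraries and 76, 118 and 123 in wild type libraries. In CPM these were 2.19, 2.66 and 2.26 in the mutant and 7.27, 7.67 and 7.42 in wild type, both groups closely spaced and apart. Cxcl14 averaged 2.37 ± 0.250 CPM in mutant LGE and 7.45 ± 0.200 CPM in wild type LGE, a log2 fold change of −1.65 ± 0.0873, or 3.14-fold lower in the mutant (adjusted p = 1.44e-04). The log2 ratio of Cxcl12 to Cxcl14 was higher by 1.21 ± 0.151 in the mutant (exact permutation p = 0.1, adjusted 0.1).

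**Figure D3:**
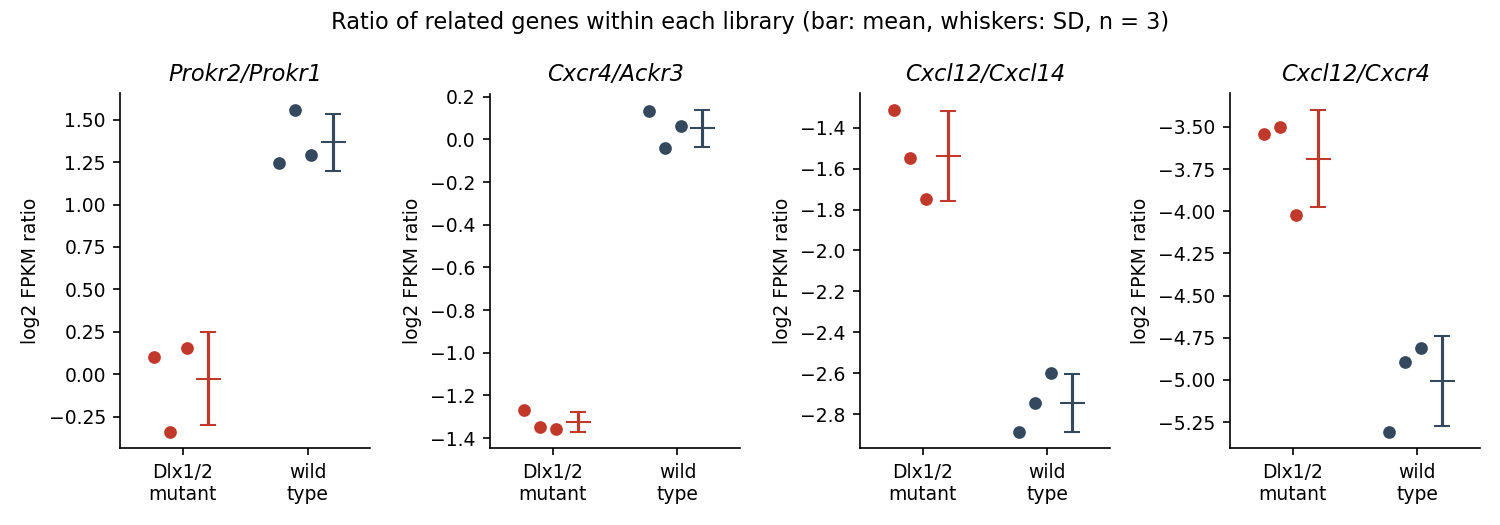
Log2 ratio of the deposited FPKM of 2 related genes within each library, with the 3 Dlx1/2 mutant libraries left (red) and the 3 wild type libraries right (dark); bars give mean and SD, and each panel has its own axis, which does not start at 0. The groups do not overlap in any of the 4 ratios.

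The authors' deposited table gives a p-value per gene with no word on its test or adjustment. In the authors' deposited table these p-values were 9.92e-40 for Cxcr4, 2.12e-35 for Prok2, 9.82e-16 for Cxcl14, 6.54e-07 for Prokr1 and 8.09e-04 for Ackr3. For Prokr2 and Cxcl12, the genes not called here, the authors' deposited table has 0.0192 and 0.0226. For these genes the edgeR test used here gave close values before adjustment, 0.0214 for Prokr2 and 0.0232 for Cxcl12. The call rests on the adjusted p. For Cxcr4, Prok2 and Cxcl14 the edgeR values before adjustment were far larger than the deposited ones, at 2.77e-08, 7.41e-07 and 4.21e-06. They were 2.78e-04 for Prokr1, also larger, and 5.07e-04 for Ackr3, close to the deposited value.

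Levels of different genes can be compared only per length, and the length behind the deposited FPKM differs from gene to gene in kind. Count, total and FPKM imply lengths of 2707 bases for Cxcr4 and 3469 for Ackr3, which equal the summed lengths of all their annotated transcripts (GENCODE M21), and 1823 bases for Cxcl14, close to its longest transcript of 1827 bases. The implied length was 0.998 times the merged exons for Cxcl14 and 2.02 times for Prok2, with the other genes between. Levels were therefore also computed as CPM per kilobase of merged exons. On that scale the mutant order was Ackr3 (14.95 ± 0.896), Cxcr4 (8.62 ± 0.305), Prok2 (4.98 ± 0.644), Prokr1 (2.39 ± 0.388), Prokr2 (1.75 ± 0.148), Cxcl14 (1.298 ± 0.137) and Cxcl12 (0.714 ± 0.113), and no neighbours overlapped. The wild type order was Cxcr4 (29.4 ± 2.27), Ackr3 (19.6 ± 0.789), Cxcl14 (4.08 ± 0.109), Prokr2 (2.30 ± 0.370), Prokr1 (1.18 ± 0.154), Cxcl12 (0.970 ± 0.106) and Prok2 (0.517 ± 0.172). There Prokr1 and Cxcl12 overlapped and did not differ beyond their spread.

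Per kilobase of merged exons, Cxcr4 was thus number 2 in mutant LGE and number 1 in wild type LGE. Prok2 was number 3 in mutant and number 7 in wild type, and Cxcl14 number 6 in mutant and number 3 in wild type. The receptors Cxcr4 and Ackr3 were above the other 5 genes in every library. The order depends on the length used, on this scale as on the deposited FPKM. Merged exons of Prokr2 held 7919 bases, against 4486 in its longest transcript, and those of Cxcl12 8176, against 5627. An order by longest transcripts was not computed. On the deposited FPKM, Cxcr4 (19.4 ± 1.24 FPKM) and Ackr3 (18.7 ± 0.609 FPKM) overlapped in wild type LGE. Cxcl14 (1.31 ± 0.139 FPKM), Prokr1 (1.23 ± 0.204 FPKM) and Prokr2 (1.20 ± 0.107 FPKM) overlapped in mutant LGE. Changes between genotypes, of a gene or of a ratio, do not depend on the length, which is the same in all libraries. The size of a ratio of 2 genes in deposited FPKM does depend on it.

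**Figure D4:**
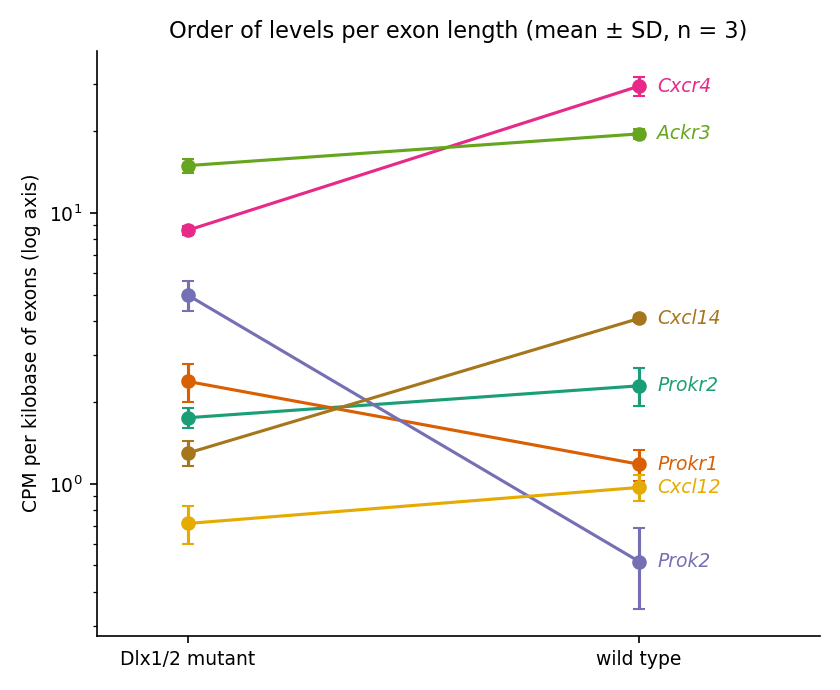
Level of each gene in CPM per kilobase of merged exons (log axis, mean ± SD, n = 3 libraries each) in Dlx1/2 mutant LGE (left) and wild type LGE (right), joined by a line per gene. The lines of Cxcr4 and Ackr3 cross, and Prok2 is number 3 in the mutant and number 7 in wild type.

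Of 34 further prokineticin and chemokine ligand genes 21 were found among the genes and 8 had reads enough to be tested. Of these 8, 1 rose, 1 fell and 6 did not pass, a share called close to the 24.0% of all tested genes, with a median log2 fold change of −0.02, against 0.00 over all tested genes. The highest 2 were Ccl27a, at 12.1 CPM in mutant LGE and 13.3 CPM in wild type LGE (adjusted p = 0.377), and Cx3cl1, a membrane-bound chemokine of neurons, at 9.64 CPM in mutant LGE and 8.83 CPM in wild type LGE (adjusted p = 0.773). Ccl28, a chemokine of mucosal surfaces, fell to 0.752 CPM in mutant LGE, against 2.86 CPM in wild type LGE (log2 fold change −1.94, adjusted p = 0.0142). Ccl9 was at 0.831 CPM in mutant LGE and 0.273 CPM in wild type LGE (log2 fold change 1.64, adjusted p = 0.0119), from 12 to 14 reads per mutant library and 3 to 4 per wild type library. Of 21 further chemokine receptor genes 16 were found and 4 were tested. Ackr2, a scavenging receptor for inflammatory chemokines, fell to 1.79 CPM in mutant LGE, against 2.89 CPM in wild type LGE (log2 fold change −0.68, adjusted p = 0.0370), 0 rose and 3 did not pass.

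Proteins that carry the receptors' signals were looked at next. Of 20 tested genes for G protein subunits, receptor kinases, arrestins, downstream kinases, GTPases and other receptor partners, 5 fell, 0 rose and 15 did not pass (median log2 fold change −0.06). The share called is close to the 24.0% of all tested genes, where 11.2% were higher and 12.8% lower. Grk5, a kinase that silences active receptors, fell to 14.5 CPM in mutant LGE, against 22.4 CPM in wild type LGE (log2 fold change −0.62, adjusted p = 0.00191). Mif, a cytokine that can also bind Cxcr4, was at 105.5 CPM in mutant LGE and 136.0 CPM in wild type LGE (−0.37, adjusted p = 0.00625). The others that fell did so by at most 0.22 on the log2 scale: Ptk2, the focal adhesion kinase (−0.22), Gnao1, a G protein subunit abundant in neurons (−0.21), and Cdc42, a GTPase of the cytoskeleton (−0.19).

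Among 31 tested genes of neuroblast migration to the bulb, changes went both ways, with 9 higher, 10 lower and 12 that did not pass (median −0.07), beside 11.2% higher and 12.8% lower among all tested genes. Pak3, a kinase of the cytoskeleton (2.18), Slit1, a repellent (1.28), and St8sia4, an enzyme that adds polysialic acid to Ncam1 (1.001), rose on the log2 scale. Reln, a secreted guidance protein (−2.23), the Slit receptor gene Robo2 (−2.06) and the neuregulin receptor gene Erbb4 (−1.82) fell. These 6 had the smallest p-values of the list. Doublecortin (Dcx), the microtubule protein of migrating neurons, was picked out afterwards as a level for such cells at large and was at 1489 ± 73.1 CPM in mutant LGE and 1560 ± 60.9 CPM in wild type LGE (adjusted p = 0.468).

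**Figure D5:**
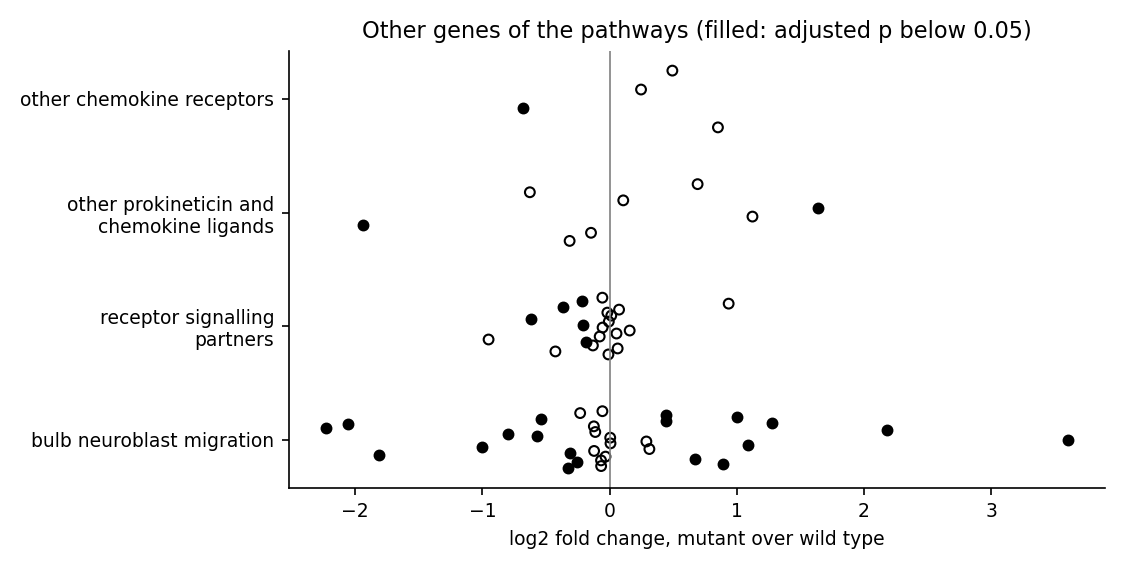
Log2 fold change, Dlx1/2 mutant over wild type, of the tested genes in 4 lists of the same pathways, 1 point per gene (from top to bottom 4, 8, 20 and 31 genes; filled where adjusted p was below 0.05; height within a row has no meaning). Most receptor signalling genes lie near 0, while neuroblast migration genes spread to both sides.

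Several cell types besides LGE neurons use these genes, and their markers were summed beside the results. Cortical interneurons of the medial ganglionic eminence carry Cxcr4 and Ackr3 while migrating. Their 13 markers summed to 1224 to 1310 CPM in mutant libraries and 972 to 1116 CPM in wild type libraries, with 4 higher, 5 lower and 4 not called. Of them Lhx6, which defines the lineage, was at 155.2 ± 9.93 CPM in mutant LGE and 178.0 ± 38.4 CPM in wild type LGE (adjusted p = 0.341). Sst (3.68) and Npy (2.10) rose and Maf (−2.08) fell on the log2 scale. Most of the difference between the sums lay in Sst, at 222.7 CPM in mutant LGE and 17.2 CPM in wild type LGE. Nkx2-1 was uneven within both groups, at 43.9, 106.4 and 61.7 CPM in mutant libraries and 37.7, 73.8 and 113.8 CPM in wild type libraries.

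Cajal-Retzius cells, the pioneer neurons of the cortical surface, also carry Cxcr4. Their 8 markers summed to 187.8 to 295.7 CPM in mutant libraries and 142.9 to 164.0 CPM in wild type libraries, with 4 of 7 tested higher and 2 lower. Ebf3 (6.39) and Lhx5 (4.53) rose on the log2 scale, and Reln, already given, fell. Most of the mutant sum was Ebf3, at 156.3 CPM in mutant LGE and 1.89 CPM in wild type LGE. Most of the wild type sum was Reln, at 24.7 CPM in mutant LGE and 116.1 CPM in wild type LGE. Trp73, which defines these cells, had 2 to 7 reads per mutant library and 1 to 7 per wild type library. The pallial lineage has intermediate progenitors that make Cxcl12. Its 13 measured markers summed to 233.6 to 340.6 CPM in mutant libraries and 101.6 to 154.0 CPM in wild type libraries. Of 11 tested, 6 were higher, among them Bhlhe22 (4.48), Neurod1 (2.87) and Neurod6 (2.43) on the log2 scale, 0 were lower and 5 were not called. Those not called went both ways, with Pax6 (0.43) and Emx2 (0.17) above 0. Neurog2 (−1.23, adjusted p = 0.0515), Tbr1 (−0.89) and Eomes (−1.005) were below 0. Eomes, which defines the intermediate progenitors, was at 4.34 CPM in mutant LGE and 8.62 CPM in wild type LGE (adjusted p = 0.206).

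Vessels and meninges make Cxcl12. The 12 endothelial markers summed to 197.0 to 209.3 CPM in mutant libraries and 218.4 to 227.3 CPM in wild type libraries, with 1 lower and 11 not called. The 10 pericyte markers summed to 334.0 to 348.6 CPM in mutant libraries and 278.4 to 288.5 CPM in wild type libraries, with 2 of 9 tested higher and 1 lower and a median log2 fold change of −0.25. Most of the sum lay in Notch3, at 150.5 CPM in mutant LGE and 98.9 CPM in wild type LGE, and Pdgfrb, at 89.6 CPM in mutant LGE and 63.8 CPM in wild type LGE, which both rose, while Abcc9 fell to 19.6 CPM in mutant LGE, against 24.3 CPM in wild type LGE. The 11 markers of meningeal fibroblasts summed to 23.8 to 30.8 CPM in mutant libraries and 29.5 to 30.8 CPM in wild type libraries. One of 6 tested was lower, and Lum and Aldh1a2 had at most 2 and 4 reads in any library. The 12 microglia markers summed to 115.2 to 147.6 CPM in mutant libraries and 102.1 to 111.6 CPM in wild type libraries, with 1 higher and 11 not called. The part of these cells in the levels of the 7 genes was not tested.

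Red blood cell and choroid plexus genes were also summed. The 8 erythroid markers summed to 583.7 to 783.2 CPM in mutant libraries and 436.3 to 645.2 CPM in wild type libraries, with 2 of 7 tested higher. The 6 measured choroid plexus markers summed to 29.5 to 35.7 CPM in mutant libraries and 7.28 to 9.72 CPM in wild type libraries, with 2 of 3 tested higher and 1 lower. Most of the sum was Otx2, a homeobox gene also used outside the choroid plexus, at 31.2 CPM in mutant LGE and 6.505 CPM in wild type LGE. Aqp1 rose to 1.16 CPM in mutant LGE, against 0.462 CPM in wild type LGE, and Clic6 fell to 0.0622 CPM in mutant LGE, against 1.03 CPM in wild type LGE. Ttr, which defines that tissue, had 0, 0 and 5 reads in mutant libraries and 0, 6 and 0 in wild type libraries.

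For each gene the 3 closest profiles were sought among 14423 tested genes of at least 1 CPM on average, by the root mean square difference of log2 CPM about its mean over the 6 libraries. Closest to Cxcr4 were the long noncoding RNA Gm27032 (0.0606), the arrestin domain gene Arrdc4 (0.0623) and the glutamate receptor gene Grik3 (0.0699). Arrdc4 was at 16.98 ± 0.173 CPM in mutant LGE and 61.6 ± 2.36 CPM in wild type LGE. Closest to Cxcl14 were Klhl13 (0.0469), Vstm2a (0.0485) and Slco3a1 (0.0808), of which Klhl13 was at 72.1 ± 8.53 CPM in mutant LGE and 235.3 ± 5.04 CPM in wild type LGE.

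Closest to Prok2 were the semaphorin receptor gene Nrp2 (0.215), the potassium channel gene Kcnj6 (0.223) and the homeobox gene Gbx2 (0.228), all of them higher in the mutant. Nrp2 was at 90.5 ± 10.1 CPM in mutant LGE and 9.46 ± 1.68 CPM in wild type LGE. The distances for Prok2 were larger than for the other genes. Prokr1 had Sel1l3 (0.0894), the long noncoding RNA Gm29260 (0.102) and Egfl6 (0.106) as neighbours, Ackr3 had Arpc5 (0.0301), Kctd13 (0.0307) and Ndufb10 (0.0309), Prokr2 had Gm43279 (0.0473), Hacd4 (0.0658) and Ehhadh (0.0686), and Cxcl12 had Mid2 (0.0495), Ache (0.0530) and Pcdha9 (0.0553). Over 6 libraries in 2 groups these distances are descriptions only.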

How the data were processed

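RNA from E16.5 mouse LGE was sequenced in 3 Dlx1/2 -/- mutant and 3 wild type samples. HISAT2 2.0.4, StringTie 1.3.0 and edgeR appear in the submitters' processing notes, as do GRCm38.p4 and mm10; which step used which is not stated. The deposited counts are raw read counts per gene, and the deposited FPKM values are per length and total, per the file headers; the length was worked out here from counts, totals and FPKM. The deposited p-value has no stated test, per the file headers. Counter, annotation release and strand setting: not given in the sources used here.

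Each column was matched by its name to 1 sample. In R 4.3.3, edgeR 4.0.16 kept 15326 of 21286 genes by filterByExpr, scaled by TMM and ran the quasi-likelihood F test, mutant over wild type, with Benjamini-Hochberg adjustment at 0.05. SEs were computed between libraries from log2 CPM with 0.5 added to each count. Floors of 3 counts cover counting error only. Replicates all differed by more than sampling noise (chi-square per degree of freedom 7.15 to 14.3). Pearson's r of log2 CPM across genes was 0.979 to 0.988 within a group and 0.945 to 0.954 between genotypes. Names of mutant and of wild type libraries differ in prefix and the labels give no batch, so such a batch and genotype cannot be told apart. Positions and exon lengths are from GENCODE M21 (GRCm38), promoters from RefSeq (GRCm38.p6, 7 of 7 symbols matched), and coding sequences were aligned with Biopython 1.88.

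The 7 genes and all lists were chosen with earlier results of these data known. The text names, besides the 7 genes, Dlx1 and Dlx2, up to 6 called genes with the smallest adjusted p per pathway list and up to 3 per marker list, and the 3 closest profiles. Lhx6, Nkx2-1, Trp73, Eomes, Neurog2, Tbr1, Pax6, Emx2, Lum, Aldh1a2, Ttr, Dcx, Prok1, Ccl27a, Cx3cl1, Met, Hgf, Ackr1 and Cxcl13 fall outside it. They were picked after their values were seen, and further called marker genes are given as counts. The symbol Ccl27a stands for 2 gene IDs, of which the first was used. Exon-length levels and thinned counts are choices made after seeing the data. Alternatives were the replicate block, RLE factors, no filter, DESeq2, a stricter threshold and leaving out each library. The test was run on simulated counts, in which 78 of 100 genes changed 2-fold and 96 of 100 changed 4-fold were recovered. Of 184 calls 10 were false. The simulation held far fewer changed genes than were called here and no batch, so it checks the procedure and not these calls.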

Additional observations from a re-analysis of the deposited data

How the results depend on the processing

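The 5 called genes kept their direction and their call under all 12 alternatives: the replicate block, leaving out each library, RLE size factors, no filter, DESeq2 1.42.0, adjusted p below 0.01 and counts thinned to 10711630. Their highest adjusted p over these was 0.0277, for Ackr3. Leaving out single libraries gave log2 fold changes of 3.03 to 3.48 for Prok2, 0.90 to 1.14 for Prokr1, −1.80 to −1.71 for Cxcr4, −0.44 to −0.35 for Ackr3 and −1.74 to −1.60 for Cxcl14. Cxcl12 ran from −0.53 to −0.33 and was called under none of them. Prokr2 ran from −0.52 to −0.28 and gained a call without wild type replicate 3 only (−0.52). The 4 ratio differences kept their sign under all 8 alternatives. This was fixed in advance, because the groups do not overlap and a constant length or a block leaves the mean difference unchanged. With the replicate block, an exact test that swaps the signs of the paired differences gave p = 0.25 for each ratio, the smallest value it allows. At adjusted p below 0.01, 875 genes were higher and 1116 lower, against 1715 and 1958 at 0.05. With the length of merged exons in place of the deposited FPKM, neighbours with overlapping ranges numbered 0 in the mutant and 1 in wild type, against 2 and 2.

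The labels share replicate numbers across groups without saying that they pair libraries. Deviations of same-numbered libraries from their group means correlated at −0.21, 0.06 and −0.21. With only 3 libraries behind each mean, these values cannot decide whether same-numbered libraries are paired. With the replicate block, the log2 fold changes were −0.38 for Prokr2 (adjusted p = 0.0988), 1.02 for Prokr1, 3.25 for Prok2, −1.77 for Cxcr4, −0.39 for Ackr3, −0.45 for Cxcl12 (adjusted p = 0.156) and −1.65 for Cxcl14, with 1223 genes higher and 1458 lower. Depth limits Prok2 in wild type (44 reads) and Cxcl14 in the mutant (114 reads) most.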

Other observations

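Another ligand and receptor pair of cell migration, Hgf and Met, was looked at after its values were seen. The receptor gene Met was at 18.7 ± 5.39 CPM in mutant LGE and 1.45 ± 0.708 CPM in wild type LGE (log2 fold change 3.601, adjusted p = 0.000181), and the ligand gene Hgf at 2.81 CPM in mutant LGE and 5.64 CPM in wild type LGE (−1.002, adjusted p = 0.00373).

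The chemokine scavenger Ackr1, a gene of vessels and red cells and, like Cxcl13, picked after its values were seen, had 262, 17 and 256 reads in mutant libraries and 29, 57 and 187 in wild type libraries (adjusted p = 0.498). Cxcl13 had 0 reads in all 3 mutant libraries and 4, 2 and 4 reads in wild type libraries, too few to be tested.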
